A study of Mus musculus with 2 samples.

Results

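Postsynaptic scaffold proteins and regulators of the spine actin cytoskeleton were followed through 34 genes from a list of names. Every probe that the array files name for one of these genes was taken, except control spots, which gave 67 of 55679 probes, at 85 spots. These are 34 of the 22328 genes with a symbol on the array, and each of them had at least 1 probe well above background on both arrays. Of the 67 probes 62 were measured in this sense, 2 were above background on the control array alone and 3 on neither. RNA came from 2 cultures of ICR mouse hippocampal neurons, prepared at embryonic day 16.5 and harvested at 12 days in vitro. Both were grown with 5.5% serum, and both received 5 µM Ara-C, which stops dividing glia, from 2 days after plating. The control culture had no further agent, and the other culture was kept for 2 days in tetrodotoxin (TTX), which blocks voltage-gated sodium channels and so silences action potentials. The labels disagree on the TTX dose: the source name says 2 mM and the series' design 2 µM. Each culture was hybridized to 1 single-colour array, so there was no replicate, no test between the conditions and no estimate of the spread between cultures. Dissociated cultures hold glia and inhibitory neurons beside pyramidal neurons, and the arrays measured RNA, not protein or spines.

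The postsynaptic density lies under the membrane of excitatory synapses. Its core is a layered scaffold in which MAGUK proteins of the PSD-95 family hold glutamate receptors, SAPAP proteins bind the MAGUKs, and SHANK proteins bind the SAPAPs and reach toward actin. The spine itself is shaped by branched actin, which is controlled by small GTPases such as those of the Rac and ARF families, by their exchange factors, and by the WAVE complex that switches on Arp2/3. In hippocampal neurons these proteins set spine size and the number of receptors held at a synapse, and the synapse is known to adjust when firing is blocked.

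At their brightest measured probe 27 of the 34 genes differed by less than 1.5-fold between the cultures, or 79.4%, against 83.7% of all measured genes. The GTPase exchange factor Kalrn was the only gene at least 2-fold lower, at 1 of 34 against 3.38% of all measured genes, and none was at least 2-fold higher, against 2.07%. Another 5 genes were at least 1.5-fold lower: Cnksr2, Synpo, Baiap2, Begain and Wasf1. The 2-fold count ran from 0 to 3 genes over other scalings and rules for choosing a probe. Together with Kalrn these 5 made 6 of 34, or 17.6%, against 8.65% of all measured genes. Only Sorbs2, from a dim probe, was at least 1.5-fold higher, 1 of 34 against 7.64%. The median log2 difference (TTX minus control) was -0.17, while the median of all 14114 measured genes was 0.01. Values below 0 were found for 24 of 34 genes, or 70.6%, against 48.8% of all measured genes. With 1 array a group these shares describe the arrays and carry no test.

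Signals are quantile-normalized intensities in arbitrary units, and each log2 difference has the error that the scanner software gives its spots, which was 0.20 or 0.21 at most probes and is given below where it was larger. This error covers the spot and not the culture, the RNA or the labelling. Of the 34 genes 12 differed by less than 1 such error, against 46.1% of all measured genes. By more than its 95% range 9 of 34 were lower, against 13.9%, and 2 of 34 higher, against 13.4%. The genes were bright. Control signals of their brightest probes ran from 47.4 to 32630 with a median of 4707, and 18 of 34 were in the brightest of 5 equal bins of measured genes. In that bin 5.49% of all genes were at least 1.5-fold lower, against 5 of those 18.

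Markers of the cell types give the setting of these values. The summed signal of 6 general neuron markers was 109898 in control and 104386 in TTX, with 3 of 6 higher in TTX. Excitatory neuron markers summed to 22898 and 16190 (1 of 4 higher) and inhibitory neuron markers to 45405 and 35182 (0 of 3 higher). General neuron markers ran from -1.20 (Nefm) to 0.47 (Tubb3) in log2 difference, and excitatory ones from -1.10 (Neurod6) to 0.74 (Slc17a6). Astrocyte markers were summed at 7067 and 10856, with 4 of 5 higher. Most of that rise was Gfap, the astrocyte intermediate filament, which went from 4917 to 8423 (0.78). The others were Slc1a3 (0.40), Aqp4 (0.24), S100b (0.06) and Aldh1l1 (-0.14). Microglia (972 and 915, 2 of 4 measured markers higher), oligodendrocyte (1210 and 1202, 2 of 3), fibroblast (692 and 852, 3 of 3) and endothelial markers (2489 and 2108, 0 of 2) were dimmer in sum. The endothelial sum was mostly Kdr (2445 and 2071), and the microglial sum mostly Csf1r (718 and 559). Cx3cr1, Mag, Sox10, Lum, Cldn5 and Cdh5 were not above background on both arrays. Fewer cells of a type and less RNA per cell cannot be told apart in such cultures, and the part of cell make-up in any value here was not tested.

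**Figure D1:**
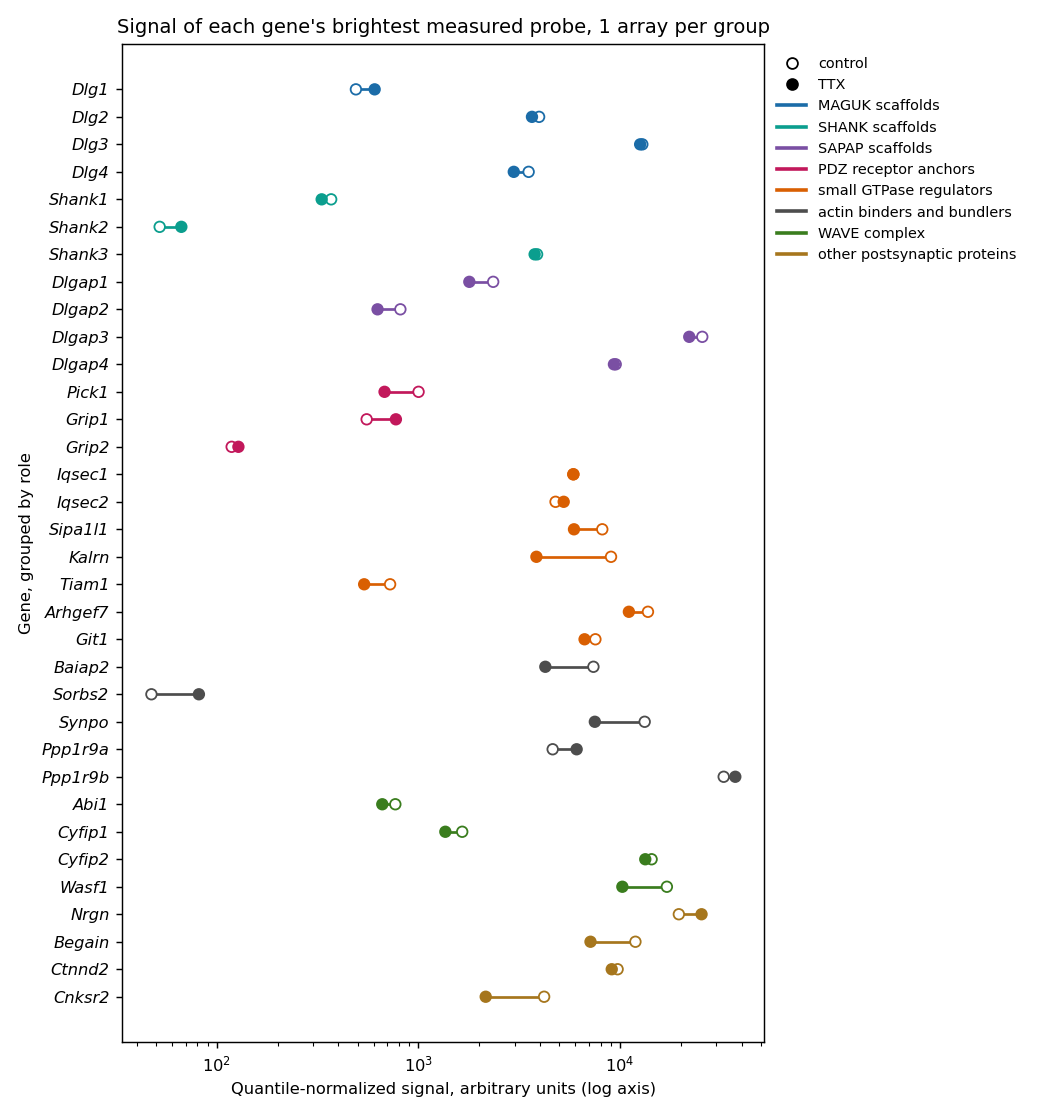
Normalized signal (log axis, arbitrary units) of the brightest measured probe of each of the 34 genes, with open circles for the control array, filled circles for the TTX array and colours for the role. The longest line to the left is Kalrn, from 9014 to 3845, while Iqsec1, Dlg3, Shank3 and Dlgap4 have circles that nearly coincide.

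In the core scaffold all 11 MAGUK, SHANK and SAPAP genes were within 1.5-fold at their brightest probe, as were 83.7% of all measured genes. Of the 11, 9 were below 0, against 48.8% of all measured genes, and the 11 values lay between -0.39 and 0.36. Among the MAGUKs, Dlg4, which encodes PSD-95, had a signal of 3518 in control and 2970 in TTX (log2 difference -0.24). Dlg3, which encodes SAP102, had 12885 and 12571 (-0.04). These are close to level, within or little above 1 error, but with spike-in scaling Dlg4 was at -0.42 and Dlg3 at -0.23. Dlg2 (PSD-93) had 3965 and 3655 at its bright probe (-0.12) and 185 and 153 at its dimmer one (-0.27). Dlg1 (SAP97), which also serves outside synapses, did not give 1 value over its probes. From the 5′ end they had signals of 490 and 606 (0.31), 102 and 98.1 (-0.06, error 0.22), and 344 and 281 (-0.29), a gap of 0.60 between the first and the last, with an error of 0.29. The sign of the middle one depended on the scaling.

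The SHANK proteins, which form the deepest layer of the scaffold, offer a direct view of the spread over spots. One Shank3 probe was printed at 10 spots spread over rows 5 to 361 of the array. Its spots read 3648 at the lowest, 3887 at the median and 4072 at the highest on the control array, and 3636, 3759 and 3974 with TTX. The ranges overlap almost fully, with TTX lower at 8 of 10 spots. The mean log2 difference was -0.04 with an SD of 0.06 over spots. That SD does not cover the scaling: the value was -0.15 with 75th percentile scaling and -0.21 with spike-in scaling. The other Shank3 probe, at 74.3 and 76.8, was level too (0.05, error 0.24, and -0.03 with normexp background correction). Shank1 was close to level at 3 of its 4 probes, with 369 and 331 at the brightest (-0.16), 179 and 150 (-0.26) and 139 and 137 (-0.02, its sign depending on the scaling). The exception was its dimmest and most 5′ probe, with 38.2 and 20.8 (-0.88, error 0.37), which was at -0.33 with normexp background correction. Shank2 was dim, with 52.1 and 66.7 at its measured probe (0.36, error 0.25). Its other probe was dim too, with 38.7 in control and 20.7 in TTX, where it was not above background (-0.90, error 0.40). The 2 dim Shank2 probes thus differed in sign, and the measured one was at 0.14 with normexp background correction.

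The SAPAP genes were all below 0 at their brightest probe, by small amounts, against 48.8% of all measured genes below 0. Dlgap1 had 3 probes on the same side, with 772 and 443 (-0.80), 2347 and 1787 (-0.39) and 397 and 260 (-0.61, error 0.21) from the 5′ end. It was the only core scaffold gene that passed 1.5-fold at a probe that was not dim, that is, above the lowest 20% of measured probes in control signal, and the brightest of the 3 gave the smallest difference. Dlgap3 had 2 matching probes, with 25549 and 22019 (-0.21) and 1830 and 1594 (-0.20). Dlgap4 was level at 9509 and 9318 (-0.03), but at -0.24 with spike-in scaling. Dlgap2 had 813 and 627 at its bright probe (-0.38), and the other, 340 kb upstream, was dim and opposite, with 35.5 and 68.4 (0.95, error 0.29), and at 0.42 with normexp background correction. That dim spot lay in row 44. Dim probes were 1.5-fold or more higher in TTX in 19.6% of cases in the first 192 rows of the array and in 11.4% in the other rows. With differences centred within blocks of 48 rows and 5 bins of signal, the dim probe was at 0.90. The part of position in the value was not tested further.

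The 2 Dlgap2 probes are shown because they differ by 1.32 log2 units with an error of 0.35, one of 2 gaps above 1 unit among the 18 genes with 2 or more measured probes. With normexp background correction they were at 0.42 and -0.34, less than 1 unit apart. A gap of at least 1 unit was seen in 3.44% of all such genes on the array, which were not matched for the number of probes. The first 30 of 60 bases are given, 5′ to 3′, as in the array files, with mm9 coordinates of the whole probe on the plus strand. The files do not say whether a probe lies in coding sequence or in a UTR.
Dlgap2 probe 1, chr8:14507586-14507645: ggaacctgataaacaacatgatagaacact
Dlgap2 probe 2, chr8:14847595-14847654: gtttcagaagccagttgtgatgttgtaaac

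The anchors that tie AMPA receptors to the scaffold through PDZ domains were all within 1.5-fold at their brightest probe. Over all measured genes that share was 83.7%. Of the 3 anchors 1 was below 0, against 48.8%. Pick1, a BAR-domain protein that takes part in AMPA receptor endocytosis, had 1001 and 679 (-0.56) and, at its other probe, 206 and 177 (-0.22, error 0.21). Both were below 0, and the brighter was just short of 1.5-fold. Grip1, which binds GluA2 and helps to carry and hold AMPA receptors, had 3 probes above 0. They read 554 and 773 (0.48), 218 and 257 (0.24, error 0.21) and 444 and 692 (0.64). Grip2 was close to level at its measured probe, with 119 and 128 (0.11, error 0.22), and its other probe was above background on neither array.

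Kalrn encodes kalirin, an exchange factor for Rac GTPases whose short brain form sits at the postsynaptic density and promotes spine growth. Of its 8 probes 7 were measured, and their values differed along the gene. The files list transcripts for each probe, and the probes are shown here in order from the 5′ end, with the first 30 of 60 bases and the mm9 coordinates of the whole probe on the minus strand of chromosome 16. Probe 1 is listed for RefSeq transcript variants 1 and 2, probes 2 and 3 for variant 2 and not variant 1, and probes 5, 7 and 8 for variant 1 and not variant 2. Probes 4 and 6 are listed for other transcripts.
Kalrn probe 1, chr16:34178383-34178442: gaggtgatgctcagtgtccccaagaaagcc
Kalrn probe 2, chr16:34174474-34174533: cgctttaaaggagccaattcagctccccaa
Kalrn probe 3, chr16:34152181-34152240: actgtctttgtacttgaacttaaatccaat
Kalrn probe 4, chr16:34049883-34049942: atagaaaagttggtcaaaaataagctggta
Kalrn probe 5, chr16:34014193-34014252: aaagattactatgcactgaaggagaatgaa
Kalrn probe 6, chr16:34013304-34013363: atttaaagaaacccttgtggatgaagtcag
Kalrn probe 7, chr16:33975602-33975661: gtcaagagttacatcgtcaatagggtgaac
Kalrn probe 8, chr16:33973091-33973150: acgtacaaagagaaaggggcattctctgta

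Kalrn was lower at probes 1 to 3, the most 5′ among its probes, all listed for variant 2. Where these probes lie within the whole gene is not given, as no annotation of mm9 was used. Probe 1 read 350 in control and 214 in TTX (-0.71, error 0.21), probe 2 read 157 and 97.6 (-0.69, error 0.22), and probe 3, the brightest, read 9014 and 3845 (-1.23, a fold of 2.34). All 3 passed 1.5-fold, although with normexp background correction probes 1 and 2 were at -0.56 and -0.41, short of it. Farther downstream the values were near 0: probe 5 had 395 and 462 (0.23, error 0.21), probe 6 had 1201 and 1029 (-0.22) and probe 7 had 5216 and 4532 (-0.20). Probe 4 was above background on neither array. The bright probes 3 and 7, listed for variant 2 and variant 1, differed from each other by -1.03, or 3.56 times the error of 0.29. The gap between probes 2 and 5 was -0.92 with an error of 0.30. Probe 1, shared by both variants, lay -0.51 from probe 7, with an error of 0.29.

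The last Kalrn probe went the other way. Probe 8 read 61.9 and 138 (1.16, error 0.27), and it was dim and lay in row 7 of the array, where dim probes were higher on the TTX array more often than elsewhere (2-fold or more in 11.5% of cases in the first 48 rows, against 4.59% in the last 48). It was the only measured probe of the 34 genes at least 2-fold higher, 1 of 62 against 2.13% of all measured probes. The part of position in it was not tested, and it was at 0.68 with normexp background correction. Kalrn was the only one of the 18 genes with 2 or more measured probes to have 1 probe at least 1.5-fold lower and another at least 1.5-fold higher, against 0.379% of such genes on the array, and its mean over probes was -0.24. Those genes were not matched to Kalrn for its 7 measured probes. Without dim probes the Kalrn range was 1.46 log2 units over 6 probes. A range of at least 1 was found in 1.77% of the 3445 genes with 2 or more probes that were not dim, and in 2 of the 27 genes (7.41%) with 5 or more. Kalrn itself is among the genes counted in both shares.

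**Figure D2:**
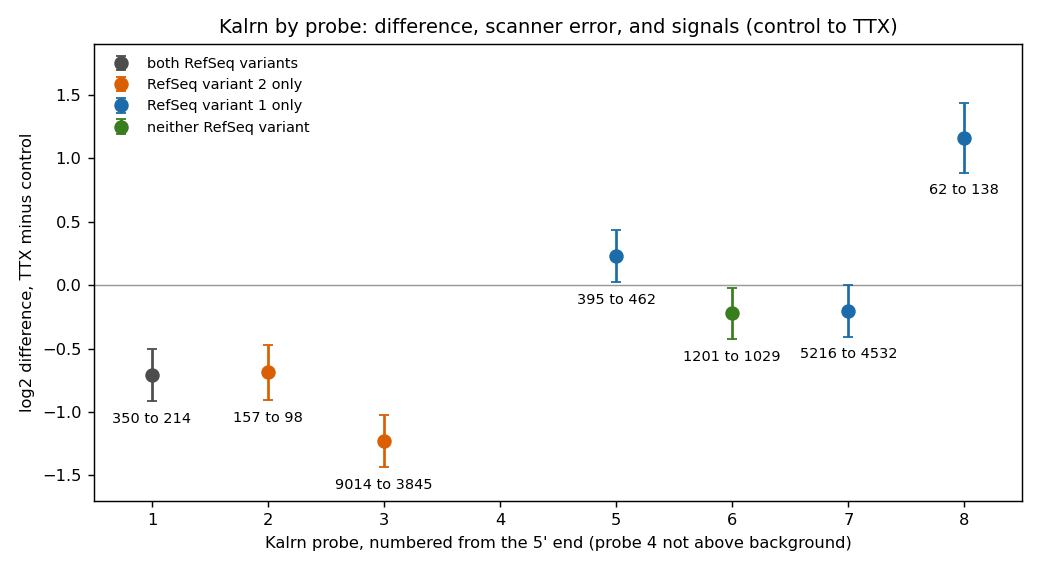
Log2 difference (TTX minus control) of the 7 measured Kalrn probes, numbered from the 5′ end, with bars for the scanner software's error, colours for the RefSeq variants that list the probe and the 2 signals under each point. Probes 1 to 3 lie between -1.23 and -0.69, probes 5 to 7 between -0.22 and 0.23, and the dim probe 8 at 1.16.

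The other regulators of small GTPases differed by less. Sipa1l1 (SPAR), a Rap GTPase-activating protein bound to PSD-95, had 8157 and 5906 (-0.47), and its other probe gave 2583 and 1869 (-0.47), the same value at both. Tiam1, a Rac exchange factor linked to NMDA receptors, had 723 and 538 (-0.43) at its probe. Both lay beyond the 95% range of the error. Arhgef7 (beta-PIX), a Rac and Cdc42 exchange factor that works with Git1, was split: its brightest probe had 13742 and 11052 (-0.31) and another had 5886 and 7635 (0.38), a gap of 0.69 with an error of 0.29. Its remaining probe was above background on neither array. Git1, an ARF GTPase-activating protein, had 7540 and 6663 (-0.18). The ARF6 exchange factors were level: Iqsec1 had 5858 and 5868 (0.00) and 72.5 and 65.1 at a dimmer probe (-0.16, error 0.24), and Iqsec2 had 4784 and 5251 (0.13). The signs of the brightest Iqsec1 probe and of Iqsec2 depended on the scaling.

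Of the proteins that bind or bundle actin 2 of 5 were at least 1.5-fold lower, against 8.65% of all measured genes. From a dim probe 1 was at least 1.5-fold higher, against 7.64%. Synpo, which encodes synaptopodin of the spine apparatus, had 13236 and 7493 at its bright probe (-0.82, a fold of 1.77). Baiap2 (IRSp53), which bends membrane and binds both PSD-95 and the WAVE complex, had 7372 and 4257 (-0.79; chr11:119863876-119863932) and 5066 and 3376 (-0.59). Both Baiap2 probes were lower and both at or beyond 1.5-fold. The Synpo bright value did not extend to its next probe, which is printed at 10 spots. These read 159 at the lowest, 168 at the median and 177 at the highest in control, and 159, 184 and 195 in TTX. The ranges overlap, with TTX higher at 8 of 10 spots and a mean of 0.11 (SD 0.13 over spots). The 2 probes differed by -0.93 with an error of 0.21. A further, dim probe read 24.7 in control and 19.4 in TTX, where it was not above background (-0.35, error 0.49).

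The neurabins and Sorbs2 lay above 0. Ppp1r9a (neurabin), which brings protein phosphatase 1 to actin, had 4630 and 6087 (0.39) and, at a probe whose mm9 coordinates span 1348 bases, 88.0 and 104 (0.25, error 0.22). Its close relative Ppp1r9b (spinophilin) was the brightest gene of the set, with 32630 and 37251 (0.19). Both were within 1.5-fold. Sorbs2, an SH3 adaptor of the actin cytoskeleton, had 47.4 and 81.5 (0.78, error 0.25) from a dim spot in row 20. It was at 0.44 with normexp background correction and at 0.73 with the centring by row block and signal. A stricter filter on dim probes removed Sorbs2, and the median of the 5 genes of this role, 0.19, became -0.30 over the 4 left.

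The WAVE complex, which relays Rac to Arp2/3, had all 4 genes below 0 and 1 at least 1.5-fold lower. The shares of all measured genes were 48.8% and 8.65%. The gene beyond 1.5-fold was Wasf1 (WAVE1), the neuronal form, with 17054 and 10258 (-0.73, a fold of 1.66, chr10:40658226-40658285). Its partners differed by little: Cyfip1 had 1648 and 1359 (-0.28), Abi1 had 768 and 662 (-0.22), and Cyfip2 had 14326 and 13326 (-0.10). Each of the 4 genes had a single probe.

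Among the remaining postsynaptic proteins Cnksr2 stood lowest after Kalrn. This scaffold of Ras signalling at synapses had 4200 and 2155 (-0.96, a fold of 1.95; chrX:154270849-154270908) and 2236 and 1374 (-0.70). Its 2 probes thus gave like values, both beyond 1.5-fold. Begain, a protein that binds the guanylate kinase domain of PSD-95, had 11910 and 7130 (-0.74, a fold of 1.67; chr12:110270408-110270467). Ctnnd2 (delta-catenin), which links cadherins to the spine, was close to level at both probes, with 9717 and 9087 (-0.10) and 9591 and 8820 (-0.12). With spike-in scaling its brightest probe was at -0.31. Nrgn (neurogranin), which holds calmodulin in spines, was higher, with 19552 and 25338 (0.37).

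**Figure D3:**
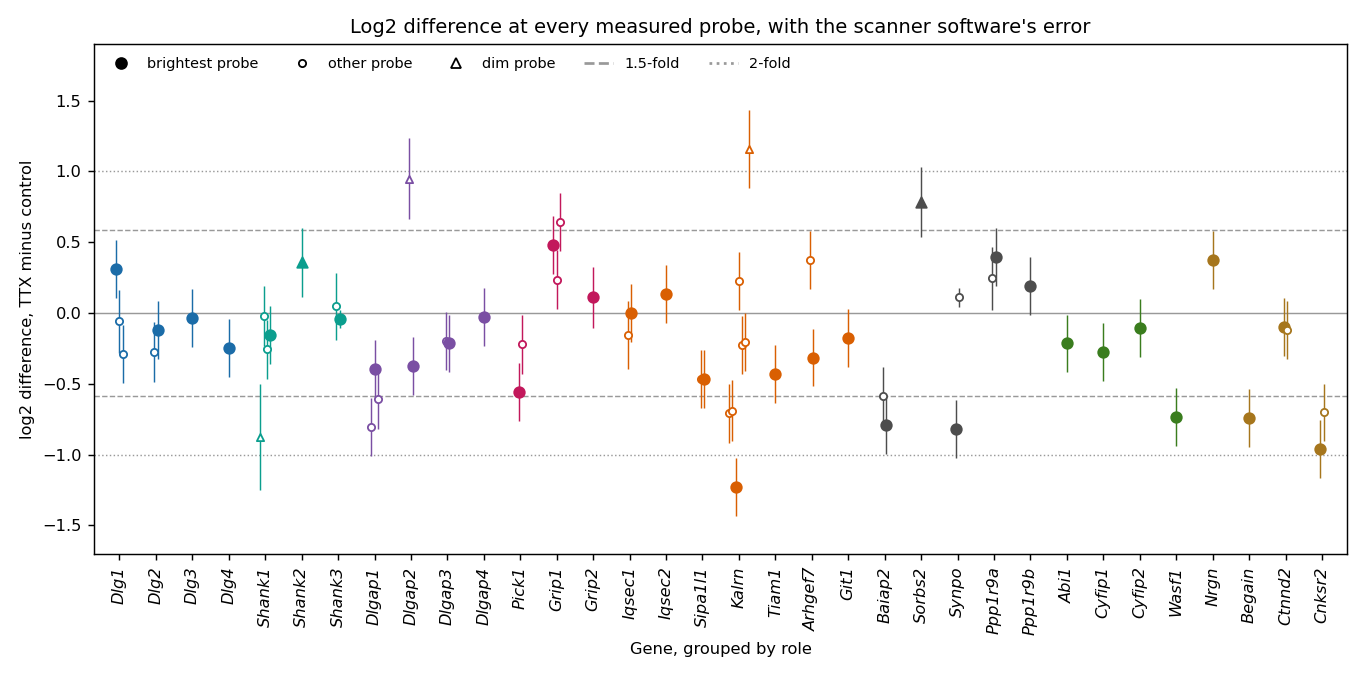
Log2 difference (TTX minus control) at the 62 measured probes, with bars for the scanner software's error; large filled symbols are each gene's brightest probe and triangles are dim probes, with a control signal in the lowest 20% of measured probes. The brightest probes of the core scaffold genes at left lie between -0.39 and 0.36, with single probes of Dlgap2, Shank1 and Dlgap1 farther out, and Kalrn spans -1.23 to 1.16.

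**Figure D4:**
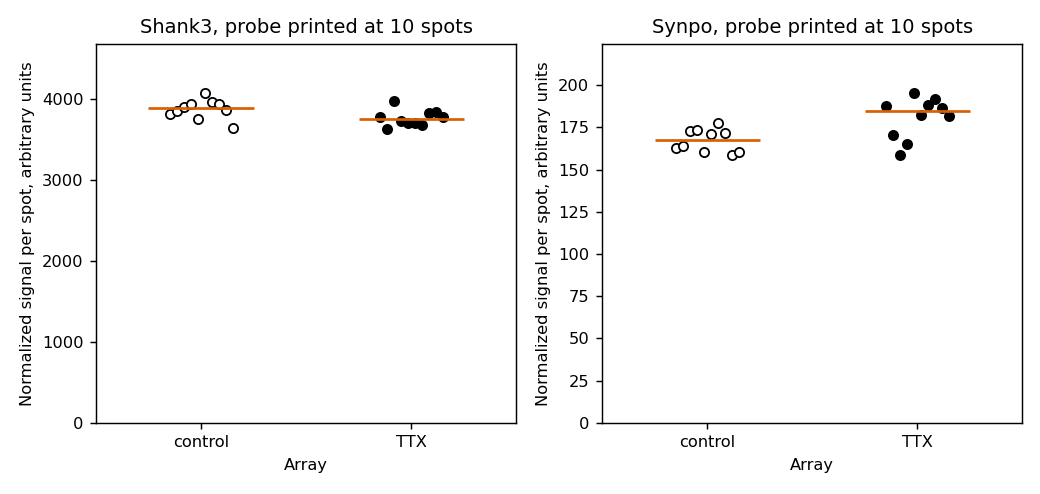
Normalized signal (arbitrary units, axis from 0) at each of the 10 spots of a Shank3 probe and of a Synpo probe on the control and TTX arrays, with a line at the median. The Shank3 medians are 3887 and 3759 and the Synpo medians 168 and 184, and the spots of the arrays overlap for both genes.

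Genes of several probes did not always give 1 value. In 18 of the 34 genes 2 or more probes were measured, and their median range was 0.30 log2 units, against 0.20 for the 4221 such genes of the array. The sets were not matched for the number of probes, and a range can only widen with more probes. All measured probes had one sign in 11 of the 18. The 5 genes with the lowest brightest-probe values after Kalrn were of both kinds: Cnksr2 and Baiap2 agreed over their probes, Synpo did not, and Begain and Wasf1 had 1 probe. Counted over probes, 1 of 62 was at least 2-fold lower, against 2.8% of all measured probes, 13 of 62 were at least 1.5-fold lower, against 8.02% of all measured probes, and 4 were at least 1.5-fold higher, against 7.87%. Of these 4 the probes of Dlgap2, Kalrn and Sorbs2 were dim and in rows 7 to 44, and that of Grip1 was not dim. Of the 13 lower probes, Kalrn, Dlgap1, Baiap2 and Cnksr2 each had more than 1, and the Shank1 probe was dim.

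Further genes of these pathways were taken from lists that hold no member. Other postsynaptic scaffolds had a median of -0.10, with 15 of 23 measured genes below 0, against 48.8% of all measured genes. Of the 23, 5 were at least 1.5-fold lower and 2 higher, against 8.65% and 7.64%. The 4 with the largest differences were Lin7a and Lin7b, PDZ partners of CASK, with 2714 and 927 (-1.55) and 6405 and 2618 (-1.29), Iqsec3, the ARF exchange factor of inhibitory synapses, with 14508 and 5202 (-1.48, and 0.13 at its other probe), and Nos1, the nitric oxide synthase that binds PSD-95, with 53.6 and 240 (2.16, error 0.23, and 2.49 at its other probe). The Nos1 spot was dim and in row 45. These 4 were picked for their size. At its brightest probe Iqsec3 lay farther from 0 than its relatives Iqsec1 and Iqsec2.

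The wider actin pathway was mixed. Small GTPases with their exchange factors and GAPs had a median of 0.07 whose sign depended on the scaling. Of 29 genes 6 were at least 1.5-fold lower and 6 higher, against 8.65% and 7.64% of all measured genes. Among their largest differences were those of Elmo1, a partner of Dock proteins (69.1 and 33.1, -1.06, error 0.30, and -0.42 with normexp background correction), Ngef (ephexin; 7523 and 3851, -0.97) and Vav3 (103 and 182, 0.82). The PAK, LIMK and cofilin list had a median of 0.08, whose sign depended on it too. In it 1 of 14 genes was at least 1.5-fold higher, the kinase Limk1 (1888 and 2993, 0.66, but 0.47 with spike-in scaling), and 1 at least 1.5-fold lower, the cofilin phosphatase Ssh1. The shares of all measured genes were 7.64% and 8.65%. The brightest Ssh1 probe was dim (44.5 and 23.1, -0.95, error 0.35), and it was at -0.41 with normexp background correction. The other Ssh1 probe was at -0.18. The kinases Pak1 (5616 and 8206, 0.55) and Rock1 (96.8 and 137, 0.50, error 0.22) were within 1.5-fold, and Rock1 was at 0.26 with normexp.

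WAVE and Arp2/3 partners had a median of -0.20 and 12 of 17 below 0, against 48.8% of all measured genes. Of the 17, 2 were at least 1.5-fold lower, against 8.65%. Nckap1, the subunit that joins CYFIP and ABI in the WAVE complex, had 16816 and 9761 (-0.78, and -0.77 at its other probe). Wipf3 had 37251 and 23728 (-0.65), Wasf2 (WAVE2) had 786 and 1133 (0.53, and down to -0.26 over 3 probes), and the Arp2/3 subunit Arpc3 had 12317 and 9848 (-0.32). The Nckap1 and Wasf1 values were thus close to each other, while Abi1 and the CYFIP genes were nearer to 0. Actin-binding spine proteins had a median of -0.07, with 4 of 19 at least 1.5-fold lower and 1 higher, against 8.65% and 7.64% of all measured genes. Cap2, a cyclase-associated actin regulator, was lowest with 533 and 163 (-1.71, and -1.79 at its other probe), followed by Actn2 (272 and 155, -0.82) and Ablim1 (746 and 479, -0.64), and the actin-binding protein kinase C substrate Marcks was higher (4387 and 7525, 0.78).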

How the data were processed

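Per the file headers, the authors deposited Agilent Feature Extraction output (version 10.7.1.1; the submitters' processing notes name 9.5.1.1) with background-subtracted processed signal intensities for mouse probes placed on mm9. The series' design text names quantile normalization. No sample was left out. From these intensities, quantile normalization over all spots that were not control spots or outliers, averaging of spots per probe, and log2 differences were computed here with Python 3.11.15, numpy 2.4.6 and pandas 2.3.3. The normexp background correction (offset 50) used limma 3.58.1 in R 4.3.3. Measured probes were those with a share of 0.5 or more of their spots flagged as well above background, on each array. Each gene is represented by its brightest such probe, and the others are given beside it. For a probe above background on the control array alone, the plain difference and its error are given, and no bound was set. Quantile normalization removes any shift of the whole array. Well above background were 54.2% of spots in control and 52.2% in TTX. The number of arrays, 1 a group, limits the precision. For the 222 probes with 9 or more usable spots the pooled SD over spots was 0.15 (log2).

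The 34 genes and the other lists were chosen with earlier results of these data known. All 34 genes and their probes could be named, and of each further list the 4 measured genes with the largest absolute difference, of which 1 is not reported here. Sequences were shown for genes whose probes differed by at least 1 log2 unit. The calculations were checked on simulated data. No annotation of mm9 was used here, so exons and UTRs are not given.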

Additional observations from a re-analysis of the deposited data

How the results depend on the processing

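The count of genes at least 2-fold lower, 1 as reported, was 2 with 75th percentile scaling, 3 with spike-in scaling and 2 with no normalization between arrays, and 0 with the mean over measured probes or with the probe nearest 0. The added genes were Cnksr2 and, with the spike-ins, Synpo. The count at least 1.5-fold higher, 1 as reported, was 0 with normexp background correction and 0 with a stricter filter on dim probes, which leaves out Sorbs2 and Shank2. The count at least 1.5-fold lower ran from 4 to 8, the count below 0 from 23 to 26, and the median from -0.32 (spike-ins) to -0.11 (probe nearest 0). With the spike-ins, which gave the 26 and the -0.32, the whole array lay lower. The median of all measured genes was then -0.09, and 60.1% of them were below 0. Over all measured genes the 2-fold counts, 477 lower and 292 higher, were 301 and 146 with normexp and 1378 and 1072 with no filter on dim probes. Of 832 values of single genes, probes and roles under these alternatives 793 stayed within their error and the others moved by more or changed sign. Among values of at least 1.5-fold 1 changed sign: Synpo, -0.82 as reported, was 0.11 at the probe nearest 0. Smaller values changed sign with the mean over probes for Dlg1 (-0.01), Dlgap2 (0.29) and Arhgef7 (0.03), and, within the error, for Iqsec1 and Shank3. No paired analysis was possible because each group had 1 array. Dim probes limit the precision: the pooled SD over repeated spots was 0.28 (log2) in the lowest signal bin of 5 and 0.06 in the highest.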
